A study of Homo sapiens with 6 samples.

Results

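The genes described here encode 9 surface or secreted molecules, other than PD-L1 itself, through which a tumour cell can signal to T cells, NK cells or macrophages: CD276, PVR, NECTIN2, NECTIN3, CD47, CD58, TNFRSF14, LGALS9 and VSIR. They were taken as a fixed list of names, matched to the Ensembl IDs of the raw count table, and all 9 were found among its 57773 genes. RNA-seq was performed on U251, an established human glioblastoma cell line, stably infected by lentivirus either to overexpress PD-L1 (gene CD274) or with the vector alone. Both lines were grown in DMEM with 10% fetal bovine serum and harvested 12 h after passage, at passages 5 to 10. Each group held 3 dishes of 100 mm, called PD-L1 dishes 1 to 3 and Vector dishes 1 to 3. Each group is a single infected line, so the spread between dishes measures culture and library variation and not variation between independently made lines.

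Immune checkpoint ligands are molecules on a presenting or target cell that engage receptors on lymphocytes or myeloid cells and dampen, or in some cases promote, their activity. CD276 (B7-H3) belongs to the same B7 family as PD-L1. PVR (CD155), NECTIN2 (CD112) and NECTIN3 (CD113) are nectin-family adhesion molecules, and PVR and NECTIN2 are bound by the inhibitory receptor TIGIT and the activating receptor CD226. CD47 binds SIRPA on macrophages and restrains phagocytosis. CD58 (LFA-3) binds CD2 and is costimulatory, unlike most of the other molecules here. TNFRSF14 (HVEM) binds BTLA, CD160 and the cytokine LIGHT, galectin-9 (LGALS9) binds TIM-3, and VSIR encodes VISTA. CD276, PVR and CD47 are known to be abundant in glioblastoma.

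Total counts per dish were between 15678989 and 22270509. The targeted gene followed the labels: CD274 stood at 1309, 1356 and 1234 counts per 1000000 of the TMM-scaled dish total (CPM) in PD-L1 dishes 1 to 3, against 1.56, 3.47 and 2.21 CPM in Vector dishes 1 to 3. Of 15818 genes with enough counts to test, 8.75% differed between the groups at a false discovery rate (FDR) under 0.05 in edgeR's quasi-likelihood test, 7.2% lower and 1.55% higher in PD-L1 dishes. Dishes differed from each other with GC content: among genes of at least 60% GC the median log2 CPM relative to the Vector mean was -0.22, -0.16 and 0.03 in PD-L1 dishes 1 to 3, and 0.08, -0.06 and -0.02 in Vector dishes 1 to 3. PD-L1 dish 3 stood apart from the other PD-L1 dishes in this respect. Of 17 marker genes of T, NK, B and myeloid cells, 15 averaged under 1 CPM in Vector dishes and the highest in any dish was 2.21 CPM. The pan-leukocyte gene PTPRC averaged 0.420 CPM in PD-L1 dishes and 0.402 CPM in Vector dishes. In bulk RNA, fewer cells of a kind and less RNA per cell cannot be told apart.

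The promoters of 4 well-expressed members and of the barely detected LGALS9 are shown to give the span of base composition among the members. Each line gives the 250 bases upstream of the gene's start, 5′ to 3′ on the gene's strand, from RefSeq on GRCh38.p14, where all 9 members were matched; the table holds 2 windows for CD276 and 1 is given. Capitals mark the GC box (GGGCGG or its complement CCGCCC, the Sp1-type element) and the CCAAT box (CCAAT or its complement ATTGG).
CD276: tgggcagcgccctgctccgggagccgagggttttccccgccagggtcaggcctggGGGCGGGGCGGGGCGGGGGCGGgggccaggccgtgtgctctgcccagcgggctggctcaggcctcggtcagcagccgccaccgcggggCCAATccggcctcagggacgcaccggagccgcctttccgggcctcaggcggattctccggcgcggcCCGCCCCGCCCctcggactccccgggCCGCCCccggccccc
PVR: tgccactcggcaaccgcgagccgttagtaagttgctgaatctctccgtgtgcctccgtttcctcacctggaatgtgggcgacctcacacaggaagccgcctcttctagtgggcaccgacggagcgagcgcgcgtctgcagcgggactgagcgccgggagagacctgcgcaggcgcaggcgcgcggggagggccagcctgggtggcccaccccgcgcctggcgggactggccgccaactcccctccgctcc
NECTIN2: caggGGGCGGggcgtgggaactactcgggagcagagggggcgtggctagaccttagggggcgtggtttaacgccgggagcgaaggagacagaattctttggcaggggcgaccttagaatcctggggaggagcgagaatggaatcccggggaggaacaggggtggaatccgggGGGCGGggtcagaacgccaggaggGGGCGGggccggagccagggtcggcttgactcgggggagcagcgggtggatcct
CD47: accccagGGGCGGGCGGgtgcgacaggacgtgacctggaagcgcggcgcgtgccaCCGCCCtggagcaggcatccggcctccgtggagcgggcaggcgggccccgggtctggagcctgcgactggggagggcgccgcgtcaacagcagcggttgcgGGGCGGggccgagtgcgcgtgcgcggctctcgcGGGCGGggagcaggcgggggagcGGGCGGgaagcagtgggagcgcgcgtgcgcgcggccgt
LGALS9: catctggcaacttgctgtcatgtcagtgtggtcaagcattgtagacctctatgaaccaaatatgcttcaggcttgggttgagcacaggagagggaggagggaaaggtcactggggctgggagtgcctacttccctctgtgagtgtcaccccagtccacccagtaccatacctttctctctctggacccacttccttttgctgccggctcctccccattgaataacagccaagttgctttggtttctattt

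These windows lie at chr15:73684133-73684382 (plus strand) for CD276, chr19:44643660-44643909 (plus) for PVR, chr19:44846047-44846296 (plus) for NECTIN2, chr3:108091032-108091281 (minus) for CD47 and chr17:27630938-27631187 (plus) for LGALS9. The PVR and NECTIN2 windows are 202 kb apart on chromosome 19. The CD276 window is 80.8% GC with 29 CpG dinucleotides and 7 GC boxes, and the CD47 window is 79.6% GC with 39 CpGs and 6 GC boxes. The NECTIN2 window holds 19 CpGs and 3 GC boxes, whereas the PVR window holds 27 CpGs and no GC box. The LGALS9 window has 51.6% GC, 1 CpG and no GC box. Base composition did not divide the members by level. VSIR, lower in summed counts than LGALS9 in both groups, has a window of 69.6% GC with 25 CpGs and 2 GC boxes. That is close to PVR (70.0% GC) and NECTIN2 (67.6% GC), and TNFRSF14 has 58.8% GC and 9 CpGs. Over all 35116 RefSeq promoter windows the median is 58.0% GC and 11 CpGs, and 42.6% hold a GC box on either strand, counting overlapping matches. None of the 9 members' windows holds the TATA-box letters TATAAA (10.7% of all windows), the AP-1 letters TGANTCA (6.57%) or the E-box letters CACGTG (6.34%). A match is a description of the letters and was not tied to binding of any factor.

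In both groups 6 members were clearly expressed and 3 were at the edge of detection, as the plot of CPM per kilobase shows. Divided by the length of all annotated exons, the mean level of CD276 was 28.8 CPM per kb in PD-L1 dishes and 36.0 CPM per kb in Vector dishes, which placed it at the 90.4th percentile of tested genes. PVR followed at 21.9 CPM per kb in PD-L1 and 25.4 in Vector dishes, and NECTIN2 at 19.9 CPM per kb in PD-L1 and 23.0 in Vector dishes. CD47 had 10.3 CPM per kb in PD-L1 and 10.8 in Vector dishes, CD58 had 8.03 CPM per kb in PD-L1 and 9.74 in Vector dishes, and NECTIN3 had 6.38 CPM per kb in PD-L1 and 6.41 in Vector dishes. Among these 6 genes, neighbours in this order were separated in every dish of a group except PVR and NECTIN2, whose PD-L1 dishes overlapped. The order depends on the length used: per kb of the longest transcript NECTIN2 (30.2 CPM per kb in PD-L1, 34.9 in Vector dishes) stood above PVR (23.2 in PD-L1, 26.9 in Vector dishes). On that length the mean of CD58 was level with NECTIN3 in PD-L1 dishes (10.78 and 10.77 CPM per kb). In Vector dishes it was level with CD47 (13.08 and 13.05 CPM per kb). LGALS9, TNFRSF14 and VSIR lay far below, at the 1.27th percentile for LGALS9, and their dishes overlapped with one another.

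**Figure D1:**
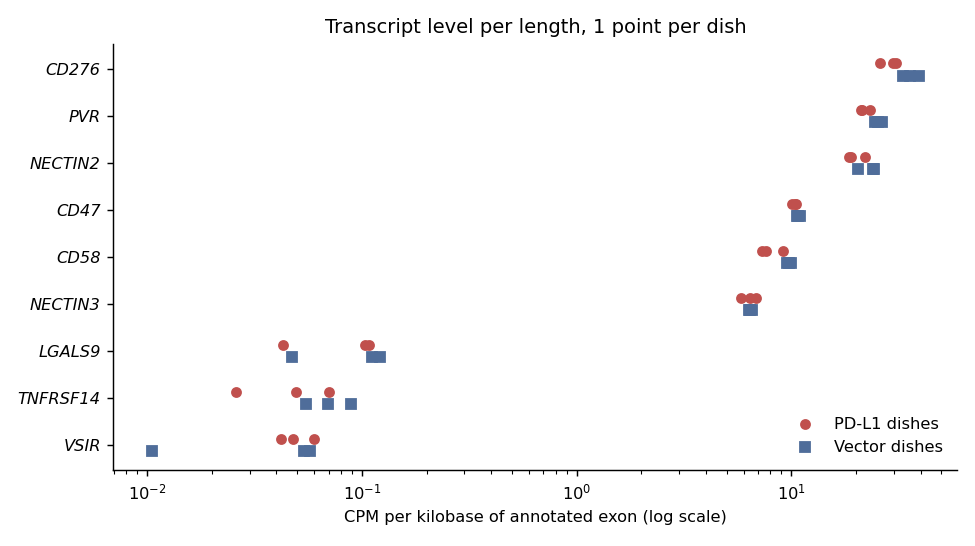
Level of each member in CPM per kilobase of annotated exon (log axis), with PD-L1 and Vector dishes as separate points. CD276 lies highest and LGALS9, TNFRSF14 and VSIR lie more than an order of magnitude under NECTIN3.

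CD276 was the member whose level was lower in PD-L1 dishes past the test. It stood at 144, 165 and 171 CPM in PD-L1 dishes 1 to 3, against 218, 183 and 198 CPM in Vector dishes 1 to 3. Every PD-L1 dish lay under every Vector dish. The mean was 160 ± 14.3 CPM in PD-L1 dishes and 199.8 ± 17.5 CPM in Vector dishes (SD, n = 3 each). In edgeR's quasi-likelihood test with Benjamini-Hochberg adjustment over all genes, this was a log2 change of -0.32 ± 0.09 (SE), or 1.25-fold lower with a 95% interval of 1.10 to 1.43, at FDR 0.0348. CD276 was 1 of 7 tested members called, against the 7.2% of all tested genes called lower. Its longest transcript is 61.0% GC, and with an offset for GC content and length the change was -0.18 at FDR 0.0359. Leaving out PD-L1 dish 1 ended the call (FDR 0.187), as did leaving out PD-L1 dish 2 (FDR 0.0725). It also ended without Vector dish 1 (FDR 0.191) and without Vector dish 3 (FDR 0.0746), and the log2 change stayed between -0.38 and -0.18 over 18 alternative settings.

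**Figure D2:**
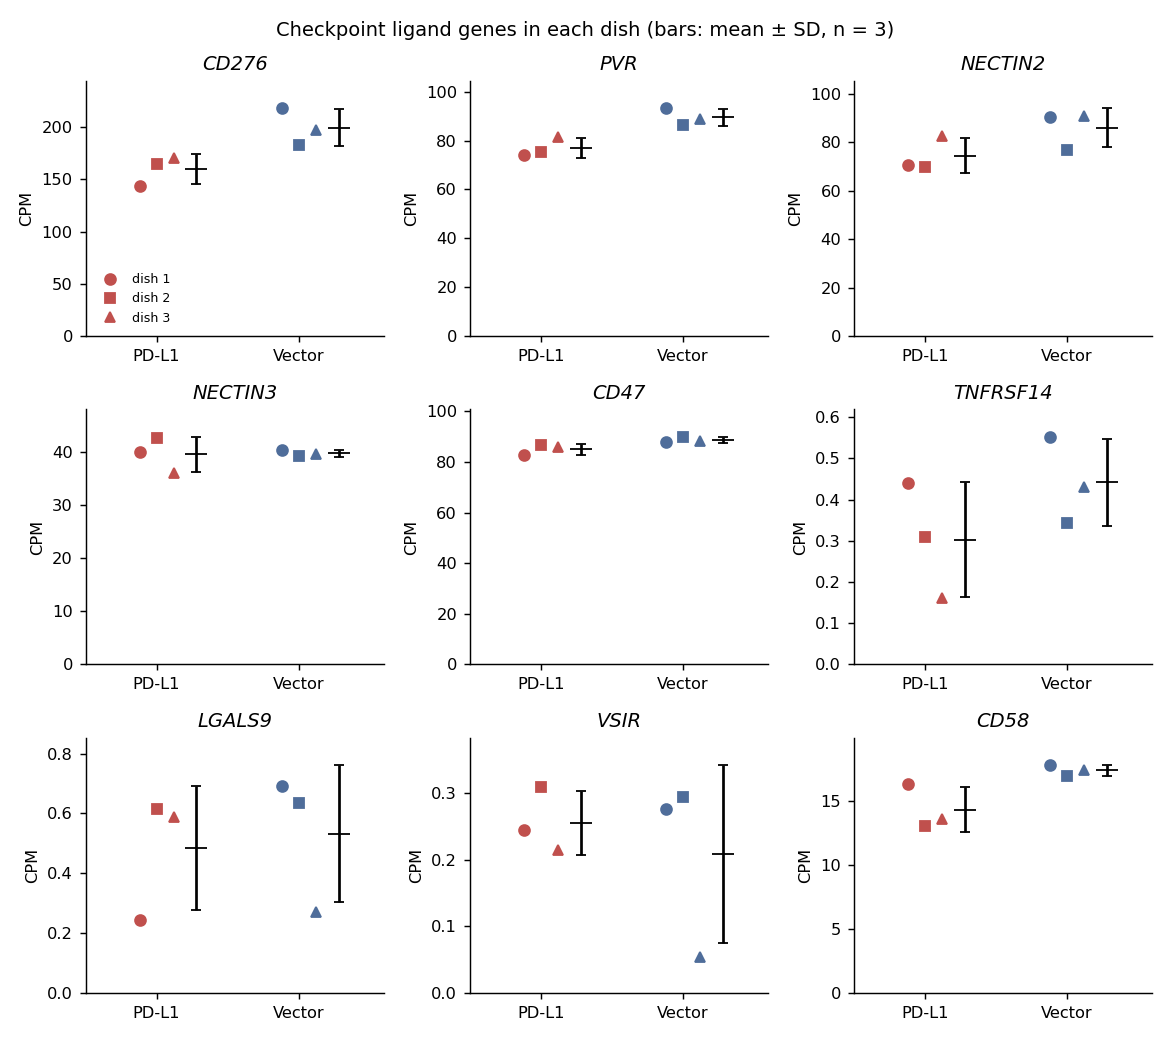
CPM of each member in each dish (points) with the group mean and SD (bars, n = 3), PD-L1 left and Vector right, each panel with its own axis from 0. CD276, PVR, CD47 and CD58 have no overlap between groups, all lower in PD-L1 dishes (CD47 and CD58 overlap in CPM of the plain total). Of all tested genes, 15.5% have such a gap with PD-L1 dishes lower. NECTIN3 means are 39.5 CPM in PD-L1 dishes and 39.7 CPM in Vector dishes.

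The nectin-family ligands PVR and NECTIN2 had lower values in PD-L1 dishes that did not pass the test, and NECTIN3 had close to equal means. PVR stood at 74.0, 75.5 and 81.5 CPM in PD-L1 dishes 1 to 3, against 93.2, 86.5 and 88.8 CPM in Vector dishes 1 to 3, and the groups did not overlap. Its log2 change was -0.22 ± 0.08 (SE), with a 95% interval of -0.38 to -0.06 and edgeR FDR 0.0920. NECTIN2 stood at 70.8, 69.7 and 82.7 CPM in PD-L1 dishes 1 to 3, against 90.3, 77.0 and 91.0 CPM in Vector dishes 1 to 3, with PD-L1 dish 3 above Vector dish 2. Its log2 change was -0.21 ± 0.09, with an interval of -0.41 to -0.01 and edgeR FDR 0.182.

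PD-L1 dish 3 was the dish nearest to the Vector level for both genes. Relative to the Vector mean, PVR was at -0.27, -0.24 and -0.13 log2 CPM in PD-L1 dishes 1 to 3, and NECTIN2 was at -0.28, -0.30 and -0.05. Without PD-L1 dish 3, both were called lower, PVR at edgeR FDR 0.0090 and NECTIN2 at 0.0085, in a fit that called 13.8% of all genes lower. With the offset for GC content and length, the log2 changes were -0.13 for PVR (FDR 0.109) and -0.11 for NECTIN2 (FDR 0.268). The transcripts of these genes are 56.5% and 59.4% GC.

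NECTIN3, a partner of the other nectins in cell junctions, stood at 39.9, 42.5 and 36.0 CPM in PD-L1 dishes 1 to 3, against 40.4, 39.1 and 39.5 CPM in Vector dishes 1 to 3. PD-L1 dishes lay on both sides of the Vector dishes. The log2 change was -0.01 with a 95% interval of -0.19 to 0.18 and edgeR FDR 0.969. Within a dish, the ratio of NECTIN2 to PVR was 0.965 ± 0.0461 in PD-L1 dishes and 0.961 ± 0.0681 in Vector dishes (SD, n = 3 each; two-sided exact permutation p = 1). The ratio of NECTIN3 to PVR was 0.515 ± 0.0645 in PD-L1 dishes and 0.443 ± 0.0097 in Vector dishes (exact p = 0.3, or 0.375 adjusted over 5 ratios), with overlapping dishes. With 3 dishes a group the smallest p this test allows is 0.1. A p above the threshold does not show that the ratios are equal.

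CD47, the signal that restrains macrophages, was not called. It stood at 82.6, 86.8 and 85.7 CPM in PD-L1 dishes 1 to 3, against 87.9, 89.9 and 88.3 CPM in Vector dishes 1 to 3. On this scale all 3 PD-L1 dishes were lower than all 3 Vector dishes, by a log2 change of -0.06 with a 95% interval of -0.21 to 0.09 (edgeR FDR 0.640). A gap of this kind, lower in PD-L1, occurred in 15.5% of all tested genes and in 4 of the 7 tested members (CD276, PVR, CD47 and CD58). For CD47 and CD58 it rested on the scaling: with CPM of the plain total, CD276 and PVR alone had no overlap, and 12.5% of all tested genes. No setting called CD47, whose log2 change ranged from -0.15 to -0.03 and whose FDR ranged from 0.0515 to 0.884.

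The CD47 binding partners examined were SIRPA, SIRPG and THBS1. SIRPA and THBS1 had appreciable expression, and both were lower in PD-L1 dishes. Other partners of CD47 were not examined. SIRPA, the CD47 receptor, averaged 32.6 ± 2.02 CPM in PD-L1 dishes and 48.1 ± 4.99 CPM in Vector dishes, a log2 change of -0.56 ± 0.09 (edgeR FDR 0.00238). THBS1, the secreted matrix protein thrombospondin-1, averaged 51.6 ± 1.92 CPM in PD-L1 dishes and 126 ± 3.14 CPM in Vector dishes, a log2 change of -1.29 ± 0.07 (FDR 5.53e-07). Both were called lower under all 18 alternatives. QPCTL, the enzyme that modifies the CD47 end that SIRPA binds, averaged 21.4 ± 3.54 CPM in PD-L1 dishes and 21.9 ± 1.68 CPM in Vector dishes (log2 change -0.03, FDR 0.913). SIRPA and THBS1 overlap antisense genes in GENCODE 29, and without strand in the library their reads cannot be told apart. Within a dish, SIRPA relative to CD47 was 0.384 ± 0.0189 in PD-L1 dishes and 0.542 ± 0.0621 in Vector dishes, and THBS1 relative to CD47 was 0.607 ± 0.0160 in PD-L1 dishes and 1.42 ± 0.0483 in Vector dishes (both exact permutation p = 0.1, the smallest possible, 0.167 adjusted over 5 ratios). CD276 relative to CD47 was 1.88 ± 0.129 in PD-L1 dishes and 2.25 ± 0.222 in Vector dishes (exact p = 0.1, 0.167 adjusted), with no overlap.

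CD58, the costimulatory ligand of CD2, stood at 16.3, 13.0 and 13.6 CPM in PD-L1 dishes 1 to 3, against 17.8, 17.0 and 17.4 CPM in Vector dishes 1 to 3. On this scale all PD-L1 dishes were lower, with dishes 2 and 3 furthest from the Vector mean. The log2 change was -0.28 ± 0.11, with a 95% interval of -0.51 to -0.04 and edgeR FDR 0.147. CD58 is 43.0% GC, and genes of 40% to 45% GC had a median log2 change of 0.07. With the offset for GC content and length, CD58 was called lower, with a log2 change of -0.36 at FDR 0.0237, in a fit that called 8.45% of all genes lower.

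**Figure D3:**
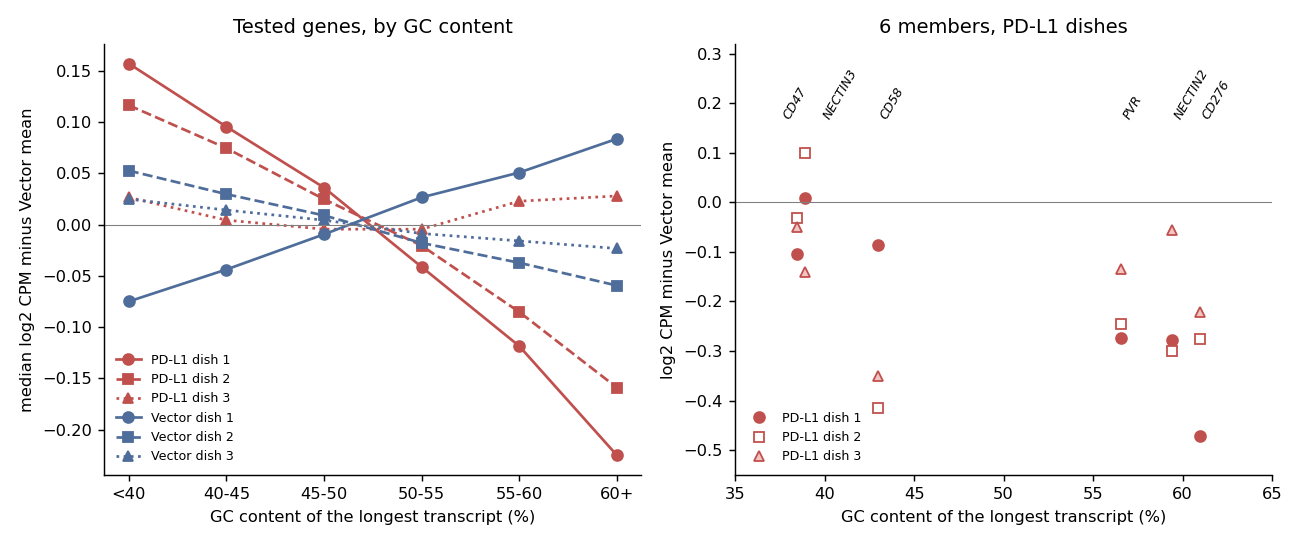
Left, median log2 CPM relative to the Vector mean against GC content of the longest transcript (%), one line per dish. Right, the same measure for 6 members in the PD-L1 dishes: PD-L1 dishes 1 and 2 fall with GC content over all genes and dish 3 does not, and the high-GC members PVR, NECTIN2 and CD276 are nearest to 0 in PD-L1 dish 3.

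The remaining members were at or near the detection limit, which a floor of 3 counts puts at 0.138 to 0.185 CPM per dish. LGALS9 had 5, 10 and 11 counts in PD-L1 dishes 1 to 3, against 15, 13 and 5 counts in Vector dishes 1 to 3, or 0.483 ± 0.207 CPM in PD-L1 dishes and 0.532 ± 0.229 CPM in Vector dishes. It was the least expressed member tested, with a log2 change of -0.19 and a 95% interval of -1.18 to 0.79 (edgeR FDR 0.841), and its direction turned without PD-L1 dish 1 (0.15) or Vector dish 1 (0.04). TNFRSF14 had 9, 5 and 3 counts in PD-L1 dishes 1 to 3, against 12, 7 and 8 counts in Vector dishes 1 to 3, and VSIR had 5, 5 and 4 counts in PD-L1 dishes, against 6, 6 and 1 counts in Vector dishes. Neither passed the filter on low counts. With no filter their log2 changes were -0.55 for TNFRSF14 (interval -1.60 to 0.51, FDR 0.642) and 0.23 for VSIR (interval -1.10 to 1.56, FDR 0.893). All 3 intervals span 0, and at these counts they bound a change only loosely.

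Of the 7 tested members, all had a log2 change under 0, with a median of -0.21, while all tested genes had a median of 0.02 with 46.4% under 0. NECTIN3 was above 0 in 3 of 18 alternatives, among them upper-quartile scaling (0.02), and LGALS9 in 2 of 17. Members also share the dishes, so these signs are not independent. Summed over the 9 members, the level was 428, 453 and 471 CPM in PD-L1 dishes 1 to 3, against 549, 494 and 524 CPM in Vector dishes 1 to 3. CD276 supplied 35.4% of the summed level in PD-L1 dishes and 38.2% in Vector dishes.

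**Figure D4:**
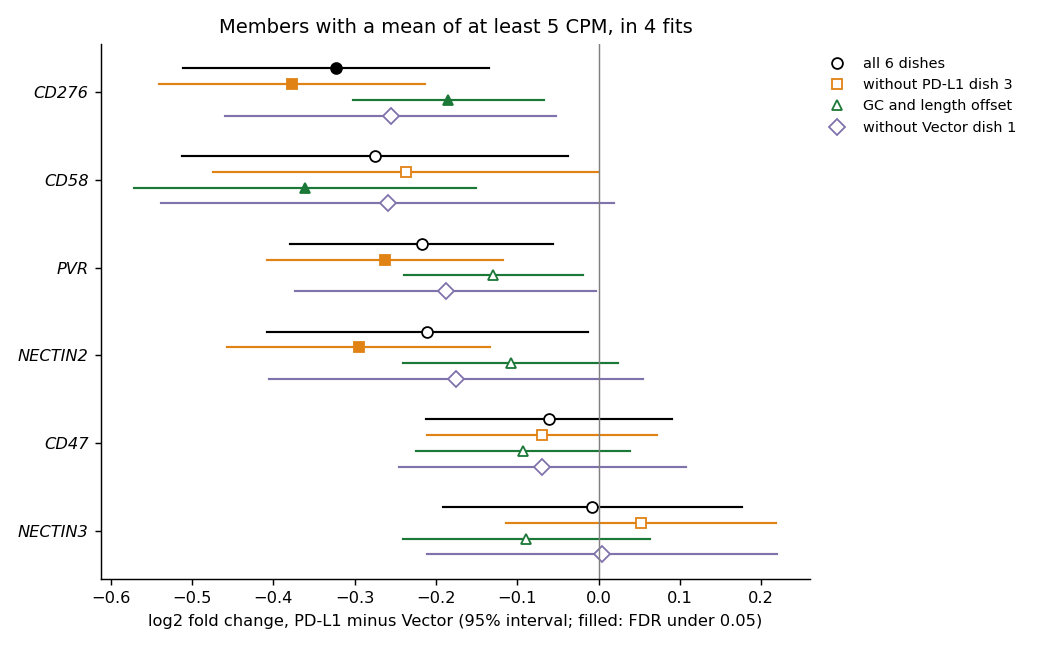
Log2 change (PD-L1 minus Vector) with 95% intervals of the 6 members with a mean of at least 5 CPM, under 4 fits: all dishes, PD-L1 dish 3 left out, an offset for GC content and length, and Vector dish 1 left out; filled points passed FDR under 0.05. CD276 is filled in all but the last fit, PVR and NECTIN2 with PD-L1 dish 3 left out, and CD58 under the offset.

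The genes whose profile over the 6 dishes lay nearest to CD276, among 11252 with a symbol and a mean of at least 5 CPM, were TCF3, PSAP and DVL3. They were picked for this nearness, so their lower means in PD-L1 dishes follow from the choice and are not separate results. How near a profile would lie by chance was not tested. The root mean square difference of centred log2 CPM was 0.026 for TCF3, 0.026 for PSAP and 0.029 for DVL3, where the profile of CD276 itself has a root mean square of 0.193. TCF3, a basic helix-loop-helix transcription factor, averaged 186 ± 14.8 CPM in PD-L1 dishes and 229 ± 16.6 CPM in Vector dishes. DVL3, a cytoplasmic WNT signalling protein, averaged 137 ± 8.48 CPM in PD-L1 dishes and 176 ± 16.1 CPM in Vector dishes. PSAP, the precursor of the lysosomal saposins, averaged 451 ± 42.9 CPM in PD-L1 dishes and 560 ± 49.6 CPM in Vector dishes.

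Around the members, 8 lists of 77 related genes were examined, 47 of which could be tested: 12 were lower and 1 was higher in PD-L1 dishes, where 7.2% of all tested genes were lower and 1.55% higher. The counts for each list below stand against the same shares. The lists were chosen with earlier results of these data known, so an excess over these shares is not a test of them. Apart from SIRPA, THBS1 and QPCTL, none of the 16 receptors and binding partners of the members averaged 1 CPM or more in either group: CD2 and SIRPG had 0 counts in every dish, and TIGIT, CD226 and BTLA averaged 0.041, 0.050 and 0.016 CPM in PD-L1 dishes, against 0.120, 0.079 and 0 CPM in Vector dishes. Of 12 other B7 and butyrophilin genes, 7 were tested and none was called in edgeR's test, with 2 at an unadjusted p under 0.05 and a median log2 change of 0.13. BTN2A1 averaged 64.5 ± 0.915 CPM in PD-L1 dishes and 60.8 ± 0.427 CPM in Vector dishes, and BTN2A2 averaged 43.8 ± 2.57 CPM in PD-L1 dishes and 37.4 ± 0.532 CPM in Vector dishes (FDR 0.508 and 0.102). Among 7 other nectins, nectin-like molecules and afadin, all tested, 1 was higher and 1 lower. NECTIN4, an epithelial nectin, rose to 14.9 ± 0.940 CPM in PD-L1 dishes, against 10.1 ± 1.55 CPM in Vector dishes (log2 change 0.57 ± 0.13, edgeR FDR 0.0128, called in 14 of 18 alternatives), and CADM4, a nectin-like adhesion molecule, fell to 28.2 ± 0.722 CPM, against 35.5 ± 3.43 CPM in Vector dishes (log2 change -0.33 ± 0.09, FDR 0.0383, called in 8 of 18 alternatives). The call of NECTIN4 ended when PD-L1 dish 2 was left out (FDR 0.0534), and likewise for Vector dish 1 (FDR 0.0746) and Vector dish 2 (FDR 0.0569). Leaving out any 1 of PD-L1 dishes 1 and 2 and Vector dishes 1 and 3 ended the call of CADM4 (FDR 0.0789 to 0.205) and, among the adhesion ligands below, that of JAM2 (FDR 0.105 to 0.196). BTN2A2 was called higher with the GC and length offset (FDR 0.0206).

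In the list of galectins LGALS1, LGALS3 and LGALS8 with LGALS3BP, a secreted glycoprotein that binds galectin-3, 3 of 4 genes were called lower and none higher, beside 7.2% of all tested genes called lower. The median log2 change was -0.55. LGALS8 was not called (log2 change -0.28 ± 0.11, edgeR FDR 0.120). It shares 2095 bases of exon with HEATR1 and 673 with LGALS8-AS1 on the other strand, whose reads cannot be told apart from its own. LGALS1, the abundant galectin-1, averaged 408.6 ± 91.6 CPM in PD-L1 dishes and 768 ± 116 CPM in Vector dishes (log2 change -0.91 ± 0.15, edgeR FDR 0.00376). LGALS3 averaged 23.8 ± 4.80 CPM in PD-L1 dishes and 37.4 ± 6.67 CPM in Vector dishes, and LGALS3BP 168 ± 9.56 CPM in PD-L1 dishes and 228 ± 28.3 CPM in Vector dishes (FDR 0.0145 and 0.00837). LGALS3 was called in 14 and LGALS3BP in 17 of 18 alternatives, and both calls were lost without Vector dish 1 (FDR 0.0854 and 0.0580); that of LGALS3 was also lost without PD-L1 dish 1 (0.0713) and without PD-L1 dish 2 (0.0631). In the tumour necrosis factor group, 3 of 8 tested genes were lower and none higher. CD70, a costimulatory ligand, averaged 51.5 ± 3.64 CPM in PD-L1 dishes and 95.7 ± 10.1 CPM in Vector dishes (log2 change -0.89 ± 0.09, FDR 8.14e-05). TNFSF4, the OX40 ligand, averaged 3.31 ± 0.606 CPM in PD-L1 dishes and 6.24 ± 1.42 CPM in Vector dishes, and LTBR, a receptor for LIGHT, averaged 9.47 ± 2.32 CPM in PD-L1 dishes and 16.2 ± 2.91 CPM in Vector dishes (FDR 0.0105 and 0.0116). TNFSF4 was called in 15 of 17 alternatives and LTBR in 15 of 18, and neither without Vector dish 1 (FDR 0.0707 and 0.0840). LTBR was also lost without PD-L1 dish 2 (0.0508). LTBR shares 422 bases of exon with SCNN1A on the other strand, whose reads cannot be told apart from its own.

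Of the 9 tested NK-cell receptor ligands, none was called in edgeR's test and 1 had an unadjusted p under 0.05, with a median log2 change of -0.07. HLA-E averaged 135 ± 19.2 CPM in PD-L1 dishes and 142 ± 10.3 CPM in Vector dishes, and NCR3LG1 89.5 ± 26.0 CPM in PD-L1 dishes and 78.0 ± 1.43 CPM in Vector dishes. NCR3LG1 rested on single dishes: its log2 change was 0.20 with all dishes (FDR 0.560), 0.41 without PD-L1 dish 3 (FDR 3.66e-04) and 0.0090 without PD-L1 dish 2 (FDR 0.985). Of 6 tested adhesion ligands of leukocytes, 2 were lower. ALCAM, the ligand of CD6, averaged 141 ± 6.15 CPM in PD-L1 dishes and 205 ± 11.04 CPM in Vector dishes (log2 change -0.54 ± 0.07, edgeR FDR 6.07e-04), and JAM2 averaged 2.99 ± 0.106 CPM in PD-L1 dishes and 4.55 ± 0.650 CPM in Vector dishes (FDR 0.0431, called in 7 of 17 alternatives). Of 3 other tested inhibitory surface molecules 1 was lower: NT5E, the enzyme CD73 that makes adenosine, averaged 23.4 ± 5.17 CPM in PD-L1 dishes and 48.1 ± 4.79 CPM in Vector dishes (log2 change -1.04 ± 0.13, FDR 3.92e-04).

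**Figure D5:**
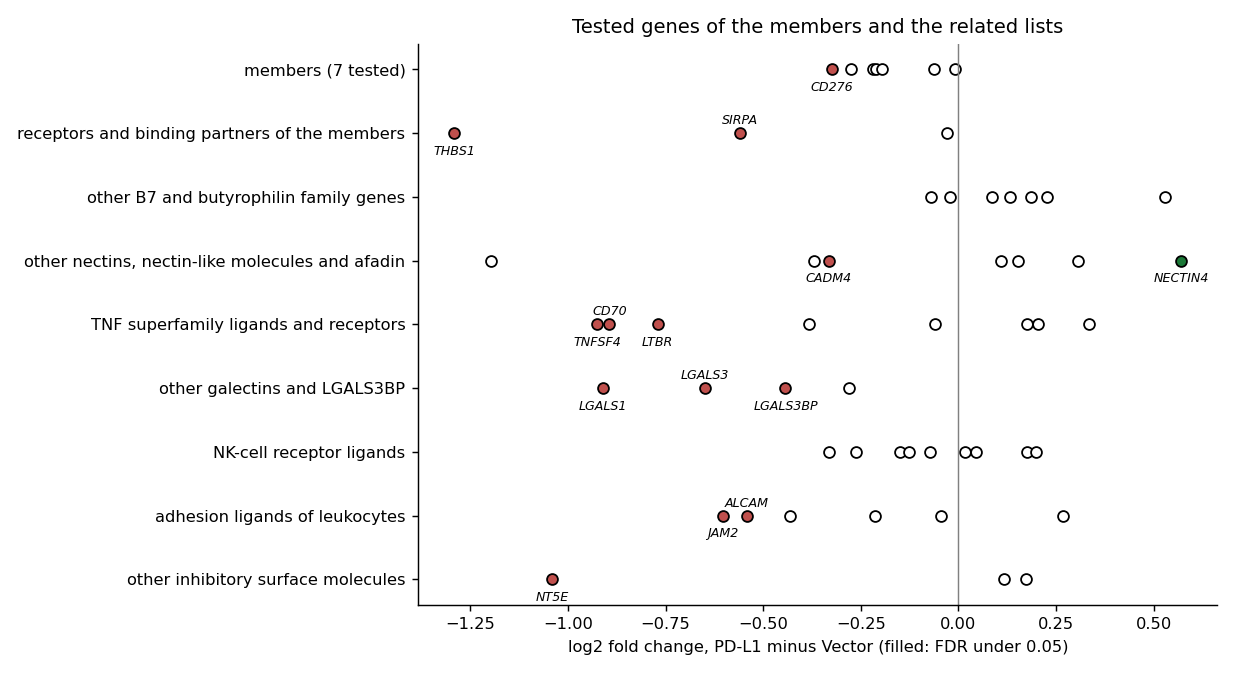
Log2 change (PD-L1 minus Vector) of each tested gene among the members and in the 8 lists of related genes, 1 point per gene, filled and named where FDR was under 0.05. The 3 galectins, LGALS3BP and the 3 tested receptors and partners lie under 0 (LGALS8 and QPCTL not filled), and 5 of 7 B7 and butyrophilin genes lie above 0 with none filled. Members and lists were chosen with earlier results of these data known.

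Markers of other cell types were examined beside these results. The summed level of 7 myeloid and microglial markers was 1.79 to 2.46 CPM in PD-L1 dishes and 3.08 to 3.96 CPM in Vector dishes, with AIF1 called lower (0.0856 CPM in PD-L1 dishes and 0.723 CPM in Vector dishes). CD68 shares 1789 bases of exon on the same strand with another annotated gene, so its level, 0 or 1 counts per dish, cannot be read as that of a marker. The sum of 6 T and NK-cell markers was 1.54 to 1.76 CPM in PD-L1 dishes and 1.15 to 1.61 CPM in Vector dishes, and the sum of 4 B-cell markers 1.85 to 2.62 CPM in PD-L1 dishes and 1.96 to 2.53 CPM in Vector dishes. The 3 endothelial markers with an ID summed to 2.44 to 3.00 CPM in PD-L1 dishes and 3.28 to 4.09 CPM in Vector dishes. Of the 2 tested, TEK was called lower (0.250 CPM in PD-L1 dishes and 2.03 CPM in Vector dishes). The other was not called and was higher in PD-L1 dishes. Both had an unadjusted edgeR p under 0.05, with a median log2 change of -1.14, so the lower sum is not shared by all of these markers. The glioma and astrocyte markers were GFAP, S100B, SOX2, NES, VIM, CD44 and FABP7. They summed to 484 to 626 CPM in PD-L1 dishes and 895 to 1050 CPM in Vector dishes, a sum weighted to the most abundant. Of these 7, 6 were called lower and none higher, where 7.2% of all tested genes were called lower. The part of these markers in the members' changes was not tested.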

How the data were processed

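Libraries were made from 3 µg of total RNA per dish by poly-T selection with the NEBNext Ultra kit, per the labels' protocols; this kit keeps no strand information. The submitters' processing notes name CASAVA 1.8, STAR 2.5.1b, HTSeq 0.6.0 and build hg19. Which gene annotation, strand option and read filter were used is not given in the sources used here. Raw counts per gene, as whole numbers with 1 column per dish, were deposited by the authors. Their second deposited table holds a normalized signal, equal to the count divided by 1 factor per dish. Gene symbols came from a names table for 51996 IDs and from GENCODE 29 for 94 more; GENCODE 29 is on another build and gave only names, lengths, GC content and overlaps.

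Counts were tested with edgeR 4.0.16 in R 4.3.3 (TMM scaling, low-count filter, robust quasi-likelihood test, FDR under 0.05, adjusted over 15818 genes, no covariates). The fit was also run on simulated counts without the GC-linked differences between dishes seen here, so that run does not bear on their effect on the calls. CPM is the count per 1000000 of the dish total times its TMM factor, and 3 counts are 0.138 to 0.185 CPM. Intervals cover counting and dish variation in these lines. Alternatives used DESeq2 1.42.0, limma 3.58.1, other scalings and filters, an offset for GC content and length (natural splines), a replicate block and each dish left out; the offset without PD-L1 replicate 3 was chosen after seeing the data. All members were named, with, per list, the 3 called genes with the smallest FDR, or the 2 with the highest mean CPM where none was called, and genes the members bind. Members and lists were chosen with earlier results of these data known. Within-dish ratios used two-sided exact permutation tests.

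PVR shares 121 bases of exon with CEACAM19 (262 counts over all dishes). TNFRSF14 shares 831 bases with TNFRSF14-AS1 on the other strand (7 counts). NECTIN2 shares 128 bases with an antisense gene (3 counts), and LGALS9 shares 294 bases with a gene on the same strand (0 counts). LGALS9 has near-identical copies LGALS9B and LGALS9C (2 and 3 counts). QPCTL and JAM2 share 54 and 58 bases of exon with genes on the other strand. VSIR lies inside CDH23 on the other strand.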

Additional observations from a re-analysis of the deposited data

How the results depend on the processing

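Of the 7 tested members, 1 was called with all dishes and 0 to 3 when 1 dish was left out. The 3 calls without PD-L1 dish 3 were CD276, PVR and NECTIN2. With the GC and length offset 2 members were called (CD276 and CD58), likewise 2 without PD-L1 replicate 3 as well, and at FDR under 0.01 there were 0. Across all genes, 1384 were called. Leaving out 1 dish gave 545 (Vector dish 1) to 3512 (PD-L1 dish 3), with 641 for PD-L1 dish 1 and 745 for PD-L1 dish 2. There were 2218 with the offset, 3523 with the offset when PD-L1 dish 3 was left out, and 530 at FDR under 0.01. With the offset both directions gained calls, with 1337 lower and 881 higher, against 1139 lower and 245 higher without it, so that the lower share of calls was 60.3% with the offset and 82.3% without. CD276 was called in 12 of 18 alternatives, CD58 in 3, PVR and NECTIN2 in 1 each, and NECTIN3, CD47 and LGALS9 in none. The log2 change of NECTIN3 turned direction under upper-quartile scaling (0.025). It ranged from -0.060 to 0.052 when 1 dish was left out, above 0 for PD-L1 dish 3 and for Vector dish 1 (0.0042). That of LGALS9 ranged from -0.50 to 0.15 when 1 dish was left out, above 0 for PD-L1 dish 1 and for Vector dish 1 (0.037), and that of HLA-E from -0.19 to 0.018, above 0 for PD-L1 dish 1. A fit with the replicate number as a block called 1 member, CD276 at FDR 0.0425, and 1447 genes; with the offset and the block CD276 was at FDR 0.129 and CD58 at 0.0388. Same-numbered dishes did not deviate together (r of -0.21, -0.05 and -0.19) and none correlated best with its own number, so the numbers were not taken as pairs. The groups did not overlap, with PD-L1 lower, for 4 tested members on the TMM scale and on the authors' normalized scale, and for 2 in CPM of the plain total, a scale added after seeing the data. Over all tested genes this held for 15.5% on the TMM scale, 15.7% on the authors' scale and 12.5% in CPM of the plain total. The cause of these changes was not tested. Depth limits LGALS9, TNFRSF14 and VSIR, at 1 to 15 counts per dish.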
